A study of Mus musculus with 13 samples.

Results

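Haematopoietic stem cells (HSCs) that had descended from lineage-restricted founder cells were pooled and compared with HSCs of multilineage founders. The comparison takes in all 13 libraries of the study. The restricted side holds 9 libraries, 6 labelled PEM-HSC and 3 labelled PLT-HSC, and the multilineage side holds the 4 libraries labelled MUL-HSC. Members were chosen by these labels alone. Each C57BL/6 founder was 1 Vwf+ HSC transplanted into its own recipient, and recipients were classed over 16 weeks as P-restricted (PLT-HSC), PEM-restricted (PEM-HSC) or multilineage (MUL-HSC). The labels do not spell out P and PEM. Read from general knowledge of such transplants as platelets, and as platelets, erythroid and myeloid cells, they would make both restricted classes without lymphoid output. Donor-derived CD45.2+ HSCs were sorted from recipient bone marrow as LSK Flt3- CD150+ CD48- and Gata1-, in samples of 500 cells. All groups share this sort, the Vwf+ founder and the passage through a transplanted host. The labels do not say whether the samples of a class came from separate recipients, and the p-values therefore reflect sample-to-sample spread alone, part or all of which may be technical.

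Accessibility was read by Omni-ATAC-seq. A transposase cuts open chromatin and tags it for sequencing, so that counts mark promoters, enhancers and other regions where nucleosomes are displaced. HSCs that carry von Willebrand factor, the product of Vwf, are known for a bias to platelets, and some of them make platelets with few or no other blood cells. Loss of lymphoid output can be present while the surface phenotype is still that of an HSC. Separately, stem cells can hold lineage programmes in open chromatin before the genes are strongly transcribed. In bulk samples, fewer cells with an open region and weaker opening in every cell cannot be told apart.

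The table held 115295 regions, of which 59408 had enough counts to be tested. The filter asked for enough counts in as many libraries as the smallest class holds. A region near 0 CPM in 1 group therefore entered the test through libraries of the other group. Library totals ran from 1276962 to 3851165 counts, and MUL-HSC libraries averaged fewer counts than restricted ones, at 2013840 ± 653195 (SD, n = 4) against 2689650 ± 931929 (SD, n = 9). The 5000 strongest regions took 33.8% ± 0.947 of counts in MUL-HSC and 34.7% ± 1.37 in restricted libraries. Neither summary differed beyond its spread, with adjusted p = 0.392 for both in an exact two-sided permutation test over libraries, adjusted over 4 summaries. MUL-HSC replicate 3 stood apart from the other 3 MUL-HSC libraries and lay nearer to the restricted ones at the called regions, so counts are also given without it. Positions are those of the mm9 build. No mm9 gene annotation was used here, so regions are named by position and carry no gene, exon or intron assignment, and the cell type was not checked against marker genes.

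Pooling the restricted classes gave 1618 regions that differed from MUL-HSC, 2.72% of those tested. Of these, 571 (0.961% of tested regions) were more accessible in restricted HSCs and 1047 (1.76%) less accessible, so 35.3% of the calls were gains. A call is an adjusted p under 0.05 in edgeR's quasi-likelihood test with Benjamini-Hochberg adjustment over all tested regions. Median accessibility at the higher regions was 4.58 CPM (counts scaled to a common library size) in MUL-HSC and 12.2 CPM in restricted libraries, with a median log2 fold change of 1.25. At the lower regions the medians were 13.8 CPM in MUL-HSC and 5.66 CPM in restricted libraries, with a median log2 fold change of -1.15. Over all tested regions the median log2 fold change was 0.02. Changes beyond 2 on the log2 scale were seen at 210 called regions, 91 higher and 119 lower.

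**Figure D1:**
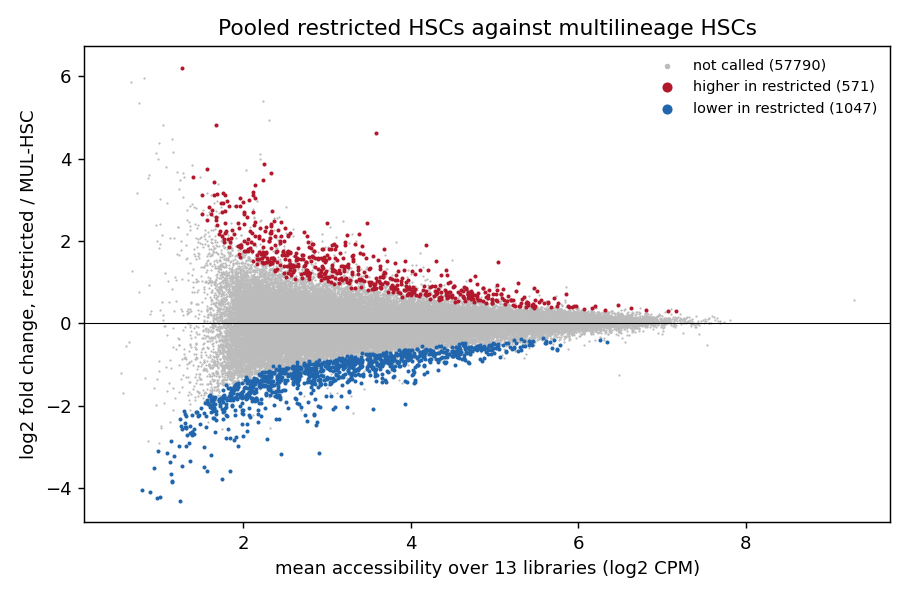
Fitted log2 fold change of restricted over MUL-HSC (vertical axis) against mean accessibility over the 13 libraries in log2 CPM (horizontal axis), with 1 point for each of the 59408 tested regions. The 571 higher and 1047 lower regions are coloured, and the called folds grow smaller as mean accessibility rises.

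The groups did not overlap, meaning that all 9 restricted libraries lay above or all below the 4 MUL-HSC libraries, at 804 of the 1618 called regions (271 higher and 533 lower). Over all tested regions this held at 1351, or 2.27%, with 517 (0.87%) above and 834 (1.4%) below. Of the 1618 regions, 174 (47 higher and 127 lower) were called in every one of 13 fits that each left out 1 library. The number called depended mostly on which MUL-HSC library was left out. It was 434 without MUL-HSC replicate 1, 492 without replicate 2 and 294 without replicate 4, but 2388 without replicate 3. Leaving out 1 restricted library gave 1143 to 2136, and adding 1 surrogate variable to the model gave 36. The number called without overlap moved alike, to 356, 410 and 234 without MUL-HSC replicates 1, 2 and 4 and to 1871 without replicate 3.

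The lower region of smallest p, chr18:76375444-76375896, was almost closed in restricted HSCs and passed the filter through MUL-HSC libraries alone. Its MUL-HSC libraries had 10.9, 9.92, 8.53 and 13.3 CPM, and the restricted libraries had 0 CPM at the lowest, 0.858 at the median and 1.88 at the highest. The groups lay far apart, and the fitted log2 fold change was -3.57 ± 0.40 (SE), with adjusted p = 3.03e-05 in edgeR's quasi-likelihood test. A region on chromosome 8, chr8:36352052-36352578, had 16.0, 12.4, 5.52 and 17.2 CPM in MUL-HSC against 0 to 3.13 CPM (median 1.69) in restricted libraries. MUL-HSC replicate 3 was the lowest of its group there but still above every restricted library, and the log2 fold change was -2.98 ± 0.34 (adjusted p = 3.03e-05).

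Chromosome 8 held 3 more of the 12 lower regions of smallest p. At chr8:127206097-127206665 MUL-HSC libraries had 12.8, 11.6, 6.02 and 12.2 CPM, while the restricted median was 0 and the highest restricted library, PEM-HSC replicate 4, had 1.98 CPM. Summed counts there were 78 in 4 MUL-HSC libraries and 11 in 9 restricted ones, with a log2 fold change of -4.30 ± 0.54 (adjusted p = 0.000138, edgeR). At chr8:124559257-124559832 the MUL-HSC values were 14.1, 22.3, 9.53 and 14.1 CPM and the restricted values 0 to 2.83 CPM with a median of 0.845. PLT-HSC replicates 1 and 2 had no count at either of these regions. Both regions passed the filter through MUL-HSC libraries alone. At chr8:10480604-10481412 accessibility was 10.9 ± 2.72 CPM (SD, n = 4) in MUL-HSC and 1.87 ± 0.873 CPM (SD, n = 9) in restricted HSCs, a log2 fold change of -2.44 ± 0.32.

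The remaining lower regions differed in how much accessibility was left. The widest of the 12, chr2:148222720-148223841, spans 1121 bp and had 39.1, 33.1, 26.6 and 29.4 CPM in MUL-HSC against 6.01 to 16.1 CPM (median 11.5) in restricted libraries. Its log2 fold change was the smallest of the 12, at -1.38 ± 0.18 (adjusted p = 0.000143, edgeR), and the groups did not overlap. At chr13:63495692-63496531 MUL-HSC libraries had 14.8, 12.4, 9.53 and 12.2 CPM against 1.95 to 5.63 CPM (median 2.97), a log2 fold change of -1.92 ± 0.27. At chr12:108386582-108387187 accessibility was 14.3 ± 2.86 CPM in MUL-HSC and 2.96 ± 1.91 CPM in restricted HSCs, and at chr15:58888023-58888574 it was 12.4 ± 4.34 and 1.60 ± 1.32 CPM (SD, n = 4 and 9). The single region of the 12 whose groups overlapped was chr4:119904633-119904960, with 12.8, 16.5, 1.5 and 13 CPM in MUL-HSC and 0.33 to 2.26 CPM (median 0.976) in restricted libraries. The value of 1.5 CPM belonged to MUL-HSC replicate 3, which there lay among the restricted libraries. Without MUL-HSC replicate 1, 2 or 4 this region had too few counts to be tested.

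Among the 12 higher regions of smallest p the groups overlapped at none. The first, chr1:157230860-157231552, had 2.57, 1.65, 4.01 and 3.43 CPM in MUL-HSC against 7.01 to 16.4 CPM (median 12) in restricted libraries. Every restricted library was above every MUL-HSC library, and the log2 fold change was 1.93 ± 0.30 (adjusted p = 0.000856, edgeR's quasi-likelihood test). At chr9:58862663-58863575 MUL-HSC values were 6.42, 4.13, 5.52 and 3.81 CPM and restricted values 9.90 to 22 CPM (median 15.3), a log2 fold change of 1.65 ± 0.26. At chr13:108389775-108391454 they were 10.3, 5.79, 9.03 and 11.4 CPM against 18.8 to 43.4 CPM (median 25.3), with PLT-HSC replicate 2 the highest.

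Several of these regions were open in MUL-HSC too and rose by modest folds. The widest, chr6:31467312-31469436, spans 2124 bp and had 35.9, 31.4, 46.1 and 47.3 CPM in MUL-HSC against 55.1 to 85.5 CPM (median 67.6), a log2 fold change of 0.72 ± 0.12 (adjusted p = 0.00195, edgeR). The region chr1:191551129-191552860 had 30.5 ± 7.11 CPM in MUL-HSC and 53.7 ± 7.63 CPM in restricted HSCs, and chr12:31057494-31058601 had 15.3 ± 3.22 and 32.2 ± 5.56 CPM (SD, n = 4 and 9). At chr9:107874050-107874881 the values were 15.7 ± 5.37 and 34.2 ± 6.82 CPM, a log2 fold change of 1.14 ± 0.19.

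A smaller group was nearly closed in MUL-HSC and passed the filter through restricted libraries alone. At chr15:81165385-81166025 MUL-HSC libraries had 0, 0, 1.5 and 1.14 CPM, 6 counts in all, against 3.44 to 13.5 CPM (median 6.87) and 157 counts in restricted libraries, a log2 fold change of 3.05 ± 0.52 (adjusted p = 0.00195, edgeR). At chr6:11484749-11485433 they had 0, 0.827, 1.5 and 0.381 CPM, 5 counts in all, against 1.72 to 12.9 CPM (median 7.16) and 144 counts. At chr4:107547158-107547548 a single count in MUL-HSC replicate 1 stood against 122 counts in restricted libraries, which had 1.72 to 10.3 CPM (median 5.14). The depth-scaled ratio of these counts was 40.6, with a 95% exact interval of 7.15 to 1617 that covers counting error only.

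In 2 alternative fits fewer of the higher than of the lower regions passed the test. With 1 surrogate variable in the model, 9 of the 12 lower and 3 of the 12 higher regions did so. With libraries of 2000000 counts or more, 11 of 11 lower regions tested and 4 of 12 higher regions passed. The MUL-HSC libraries of that fit were replicates 3 and 4, and replicate 3 lay nearer to the restricted libraries at the called regions.

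**Figure D2:**
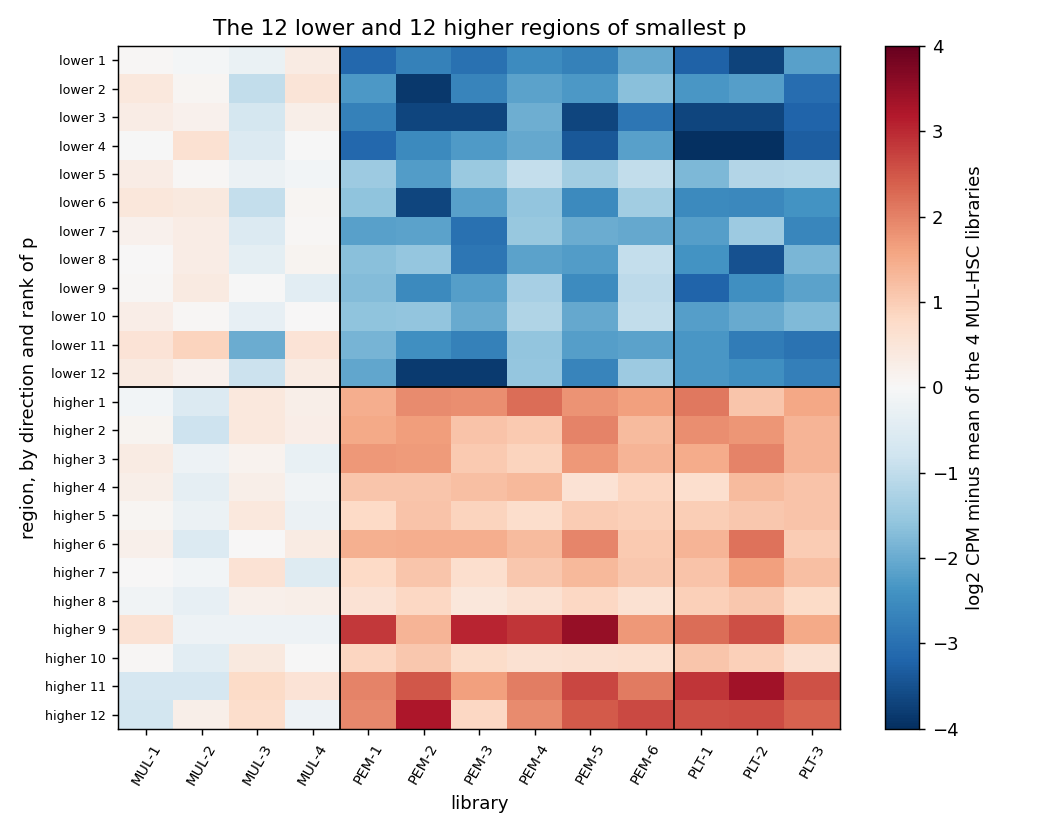
Heat map of log2 CPM minus the mean of the 4 MUL-HSC libraries (colour scale, from -4 to 4) for the 12 lower and 12 higher regions of smallest p (rows, by rank of p) in each of the 13 libraries (columns). All restricted columns are blue in the upper 12 rows and red in the other 12. MUL-HSC replicate 3 lies below the MUL-HSC mean in every lower row and above it in most higher rows. It is farthest below at lower region 11, chr4:119904633-119904960.

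Each restricted class was also set against MUL-HSC on its own, in a fit with 1 coefficient per class. That fit called 494 regions (0.832%) for PEM-HSC and 1431 (2.41%) for PLT-HSC. Both comparisons use the same 4 MUL-HSC libraries as the pooled one, so their agreement carries no weight of its own. At the regions called higher by pooling, the median log2 fold change was 1.15 for PEM-HSC and 1.39 for PLT-HSC. At those called lower the 2 values were -1.08 and -1.26. All 24 regions of smallest p, 12 in each direction, were called in both classes. This did not hold for most calls. Of the 1618, 335 were called in both classes, 594 in PLT-HSC only, 145 in PEM-HSC only and 544 in neither.

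Pooling added 544 regions (33.6% of its calls) that neither class alone passed, 161 higher and 383 lower. It also left out single-class calls. Of the 1431 regions called for PLT-HSC, 929 were among the 1618, and of the 494 called for PEM-HSC, 480 were. The number called by pooling alone was 144, 166 and 98 without MUL-HSC replicates 1, 2 and 4, and 311 without PEM-HSC replicate 5. With 1 surrogate variable in the model it was 16. For the 544, the median absolute log2 fold change was 1.02 pooled, 1.01 in PEM-HSC and 1.05 in PLT-HSC. The set leaves out every region that passed in 1 class, so close medians are partly fixed by this choice and are a description. The median standard error at these regions was 0.269 pooled, 0.291 for PEM-HSC and 0.336 for PLT-HSC. Groups did not overlap at 214 of the 544 (39.3%), against 49.7% of all called regions and 2.27% of all tested ones. None of the 544 was called in all 13 fits that left out 1 library. None of the 10 regions named from this set was called with 1 surrogate variable in the model.

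The 5 lower regions of smallest p in this set show values just past the threshold. At chr9:55852540-55853028 MUL-HSC libraries had 10.3, 8.27, 9.03 and 6.10 CPM against 2.5 to 4.53 CPM (median 3.58) in restricted libraries, without overlap. The pooled log2 fold change was -1.22 ± 0.27 with adjusted p = 0.0132, beside -1.19 with adjusted p = 0.0542 for PEM-HSC and -1.28 with adjusted p = 0.0504 for PLT-HSC, all from edgeR's quasi-likelihood test. The call was lost without MUL-HSC replicate 1. At chr1:51991398-51991698 the MUL-HSC values were 11.6, 8.27, 6.02 and 8.01 CPM against 2.29 to 4.81 CPM (median 3.74), again without overlap, with a log2 fold change of -1.21 ± 0.27, and the call was lost without MUL-HSC replicate 1 or 4. The other 3 overlapped through 1 library or a few. These were chr2:5722354-5722688 (5.41 ± 3.5 CPM in MUL-HSC and 0.428 ± 0.437 in restricted HSCs), chr9:79905451-79906005 (10.7 ± 4.01 and 4.23 ± 1.89) and chr17:34084365-34084653 (6.86 ± 3.54 and 1.77 ± 0.686), with SD over 4 and 9 libraries. The region chr9:79905451-79906005 lost its call without MUL-HSC replicate 1 or 4. The regions chr2:5722354-5722688 and chr17:34084365-34084653 had too few counts to be tested without MUL-HSC replicate 1, 2 or 4. Their test thus rests on the higher MUL-HSC libraries.

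Of the 5 higher regions of this set, 4 rose by less than 1 on the log2 scale. At chr16:85800917-85802003 the libraries were tightly grouped, with 45.6, 45.5, 55.7 and 47.7 CPM in MUL-HSC against 57.5 to 69.3 CPM (median 63.1), and the log2 fold change was 0.39 ± 0.09 (adjusted p = 0.0223, edgeR). At chr14:15974762-15975954 the MUL-HSC values were 16.7, 19.8, 18.6 and 19.8 CPM against 21.4 to 36.0 CPM (median 29.1), and at chr12:70380870-70381750 they were 6.42, 9.10, 14 and 12.2 CPM against 15.3 to 23.2 CPM (median 19.6). The groups overlapped at none of these 3, and each call was lost without MUL-HSC replicate 1, 2 or 4. The remaining pair overlapped. These were chr1:167122179-167122628, with 15.2 ± 2.43 and 24.4 ± 4.97 CPM, and chr4:123725588-123726193, with 1.45 ± 1.77 and 6.69 ± 3.12 CPM (SD, n = 4 and 9). The log2 fold change of the latter was 2.03 ± 0.49. The first of the pair lost its call without MUL-HSC replicate 1 or 4, and the second without replicate 1, 2 or 4.

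Whether the pooled classes differ from each other was tested with PLT-HSC minus PEM-HSC. The MUL-HSC values do not enter this fold change, but MUL-HSC libraries take part in the filter, scaling and estimate of spread behind its test. Over all tested regions 1 region (0.00168%) was called, chr6:113810669-113811399, and it was not among the 1618, with a pooled log2 fold change of -1.46 and adjusted p = 0.231 (edgeR). None of the 1618 was called for a difference between the classes. At an unadjusted p under 0.05, 174 of the 1618 (10.8%) differed between the classes, against 2739 of all tested regions (4.61%). PLT-HSC was the class farther from MUL-HSC at 166 of the 174, and PEM-HSC at 8. Over all tested regions at that threshold, signed by the pooled direction, PLT-HSC was farther at 1889 and PEM-HSC at 850. The 1618 were chosen with the same restricted libraries, so these counts are a description. The number differing at an unadjusted p under 0.05 was 85 of 1249 called regions without PLT-HSC replicate 1 and 299 of 1769 without PLT-HSC replicate 3. It was 56 of 434, 63 of 492 and 33 of 294 without MUL-HSC replicates 1, 2 and 4. An example is chr8:124559257-124559832, where PEM-HSC libraries had 0.845, 1.72, 2.29, 2.83, 0.573 and 2.5 CPM and PLT-HSC libraries 0, 0 and 0.66 CPM. The unadjusted p of that difference was 0.00338 in edgeR's quasi-likelihood test, and it did not pass adjustment.

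To place each library without letting it choose the regions, regions were called in the other 12 libraries. The left-out library was then set on a line from 0, the mean of the other MUL-HSC libraries, to 1, the mean of the other restricted libraries. MUL-HSC replicates 1, 2 and 4 lay at 0.0679, 0.0289 and 0.164, near their group, but replicate 3 lay at 0.619. PEM-HSC replicates 1 to 6 lay at 0.906, 1.09, 0.794, 0.595, 1.03 and 0.643. PLT-HSC replicates 1 to 3 lay at 1.24, 1.10 and 0.795. All 9 restricted libraries were thus on the restricted side of the midpoint, and so was MUL-HSC replicate 3, which lay between PEM-HSC replicates 4 and 6. The means were 0.220 ± 0.272 (SD, n = 4) for MUL-HSC, 0.844 ± 0.203 (SD, n = 6) for PEM-HSC and 1.05 ± 0.229 (SD, n = 3) for PLT-HSC, and the ranges of PEM-HSC and PLT-HSC overlapped.

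**Figure D3:**
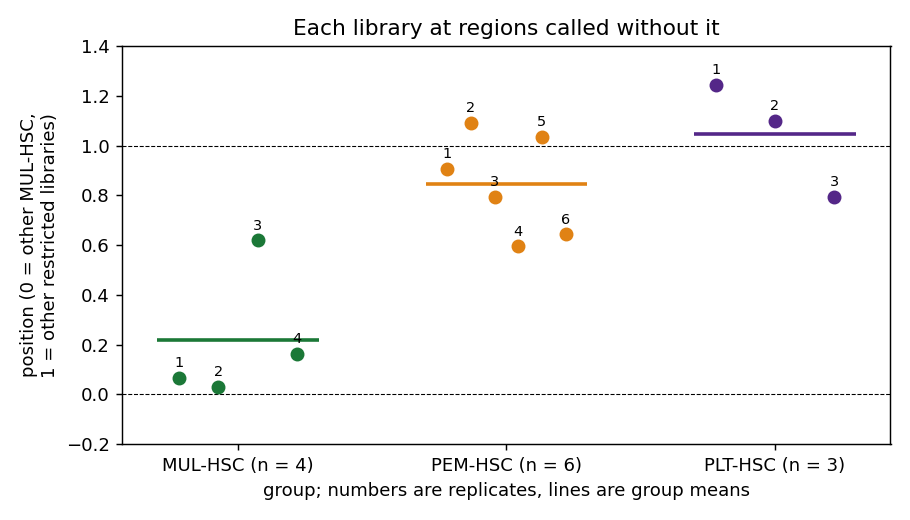
Position of each library (points, numbered by replicate) at regions called without it, on a scale where 0 is the mean of the other MUL-HSC libraries and 1 the mean of the other restricted libraries; lines are group means. MUL-HSC replicate 3, at 0.619, lies within the range of PEM-HSC, and the other 3 MUL-HSC libraries lie at or below 0.164.

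Called regions were gathered in 1 stretch of chromosome 12 more than in any other 1 Mb bin. The genome held 2385 such bins with a tested region, 950 with a call and 23 with 5 calls or more. From 116 to 117 Mb of chromosome 12, 13 of 25 tested regions (52%) were called, all lower in restricted HSCs. The share over all tested regions was 2.72%. Of the 25, 23 had a negative log2 fold change. The median over the 25 was -1.67, and the 13 called regions ran from -2.54 to -1.40 over 994 kb. As background, the immunoglobulin heavy chain locus, where B cells rearrange antibody genes, lies near the distal end of mouse chromosome 12. Whether these regions lie inside it was not determined here. Summed over the 25 regions, accessibility was 420, 423, 282 and 297 CPM in MUL-HSC, 180, 146, 135, 188, 148 and 235 CPM in PEM-HSC, and 90.1, 142 and 119 CPM in PLT-HSC. The sums did not overlap between MUL-HSC and restricted libraries, whose mean was 0.432 of that of MUL-HSC. This bin was chosen for its number of calls in these same libraries. The separation is thus partly fixed by the choice, and the sums are a description.

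The region of smallest p in this stretch, chr12:116383510-116384038, had 19.9, 24.8, 19.1 and 14.1 CPM in MUL-HSC. PEM-HSC libraries had 5.07, 2.58, 3.44, 7.07, 2.58 and 8.76 CPM and PLT-HSC libraries 1.30, 2.80 and 3.63 CPM, a log2 fold change of -2.21 ± 0.29 (adjusted p = 0.000243, edgeR). MUL-HSC replicate 3 lay within its own group there. Groups did not overlap at 8 of the 13 called regions, and 8 were called in every fit that left out 1 library. Of the 13 called regions, PLT-HSC alone also passed the test at 12 and PEM-HSC alone at 9. Regions with little or no change lay between the called ones, such as chr12:116403614-116404548, with a log2 fold change of -0.07 (adjusted p = 0.872, edgeR). Without MUL-HSC replicate 1 the stretch held 8 calls, with libraries of 2000000 counts or more it held 4, and with 1 surrogate variable in the model it held 1.

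**Figure D4:**
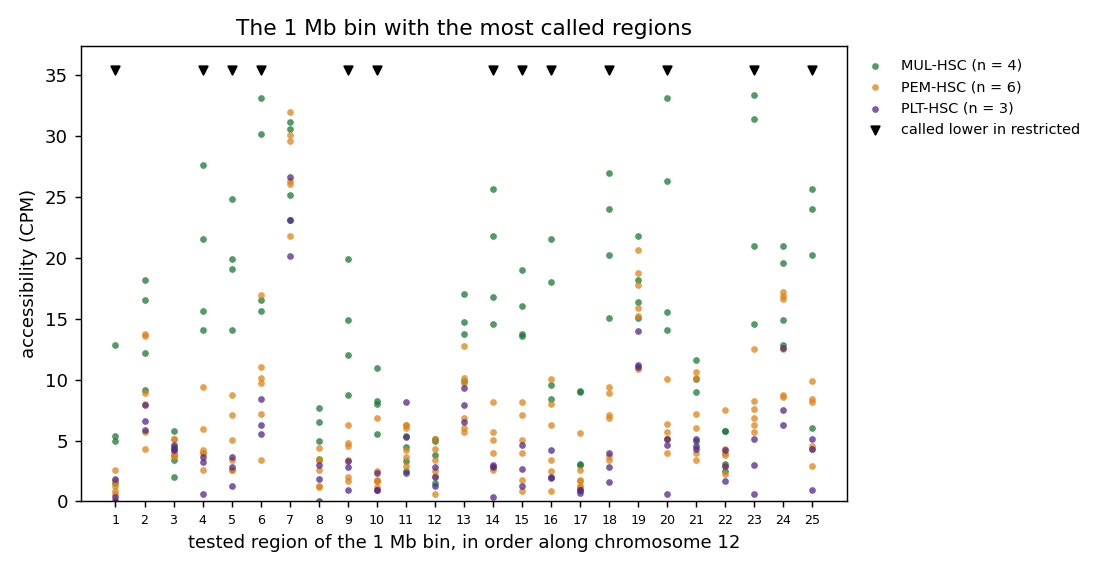
Accessibility in CPM (vertical axis) of the 25 tested regions from 116 to 117 Mb of chromosome 12, in order along the chromosome (horizontal axis), with 1 point per library; triangles mark the 13 regions called lower. At most of the marked regions the MUL-HSC points lie above the restricted ones, while regions 3, 7 and 11 show the groups mixed.

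The bin from 3 to 4 Mb of chromosome 7 came next with 9 calls among 34 tested regions (26.5%, against 2.72% of all tested regions). Of the 9, 8 were lower and filled a stretch of 196 kb, from 3671734 to 3867381, in which no other region was tested. Their log2 fold changes ran from -1.80 to -0.86. The groups overlapped at all 8, MUL-HSC replicate 1 was the highest of the 13 libraries at all 8, and MUL-HSC replicate 3 was the lowest of its group at all 8. At chr7:3849500-3850052, for example, MUL-HSC libraries had 23.7, 14.1, 6.52 and 11.8 CPM and restricted libraries 1.72 to 6.93 CPM. This bin held 1 call without MUL-HSC replicate 1 and 2 calls without replicate 2 or replicate 4.

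The next bins were mixed in direction. From 61 to 62 Mb of chromosome 9, 7 of 67 tested regions were called (10.4%), 2 higher and 5 lower. From 38 to 39 Mb of chromosome 6 it was 6 of 41 (14.6%), 3 in each direction. From 112 to 113 Mb of chromosome 12 it was 6 of 75 (8%), 2 higher and 4 lower. The share over all tested regions was 2.72%, and the bins were chosen for their number of calls. Most tested regions of these bins were not called. Without MUL-HSC replicate 4 the calls in these 3 bins numbered 3, 0 and 3.

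A trio on chromosome 9, singled out after its values were seen, changed in opposite directions within 13.6 kb. The outer regions rose and the middle one fell. The middle region, chr9:61169499-61170585, had 29.5, 28.1, 10.5 and 22.5 CPM in MUL-HSC against 0.858 to 7.51 CPM (median 3.30), a log2 fold change of -2.39 ± 0.29 (adjusted p = 0.000146, edgeR). On one side, 5.38 kb away, chr9:61162979-61164121 had 7.06, 3.31, 9.03 and 8.01 CPM in MUL-HSC against 14.4 to 28.1 CPM (median 20.3), a log2 fold change of 1.52 ± 0.24. On the other side, 5.22 kb away, chr9:61175800-61176545 had 13.5, 10.7, 17.6 and 10.7 CPM against 21.5 to 29.4 CPM (median 26.0), a log2 fold change of 0.97 ± 0.16. The groups overlapped at none of the 3, no other tested region lay between them, and all 3 were called in every fit that left out 1 library. With 1 surrogate variable in the model both outer regions lost their calls, and chr9:61175800-61176545 also lost it with libraries of 2000000 counts or more. A neighbour called in the opposite direction within 10 kb was found for 6 of 1047 lower regions (0.573%) and 7 of 571 higher ones (1.23%). Over all tested regions, 1.18% had a higher neighbour and 1.95% a lower one, so such neighbours were few for any region. Neighbours called in the same direction were found for 47 of the 1047 lower regions (4.49%) and 18 of the 571 higher ones (3.15%), against 1.95% and 1.18% of all tested regions.

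On all 19 autosomes more regions were lower than higher. Between 2.33% and 3.53% of an autosome's tested regions were called, with chromosome 12 at the top. Chromosome X differed, with 7 of 1222 regions called (0.573%), 1 higher and 6 lower. Its share at an unadjusted p under 0.05 was 10.1%, against 15.2% to 18.2% on autosomes and 16.7% of all tested regions. The median absolute log2 fold change on X was 0.193, against 0.205 to 0.235 on autosomes, while the median standard error of 0.255 lay within the autosomal range of 0.246 to 0.272. Chromosome X held 1.76% to 1.81% of counts in MUL-HSC libraries and 1.72% to 1.84% in restricted ones. These chromosome values are descriptive and carry no test, and chromosome X was singled out after its values were seen.

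**Figure D5:**
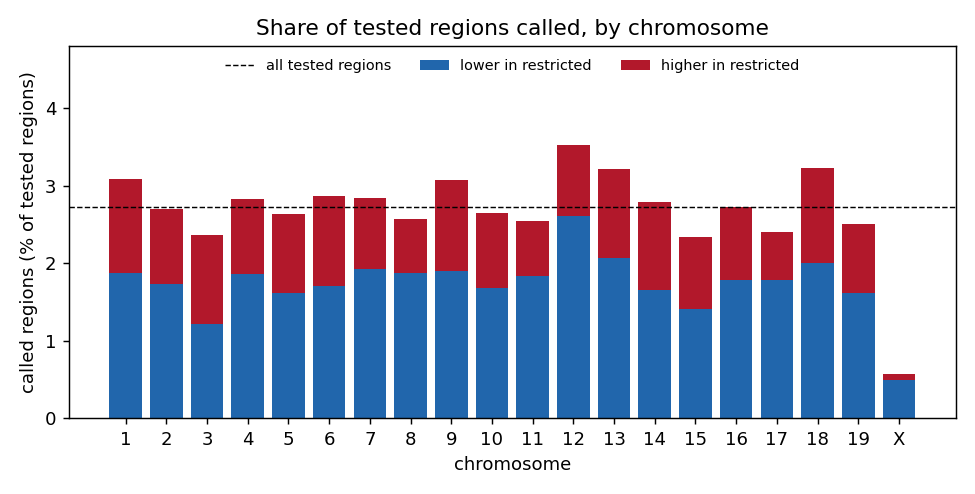
Percent of each chromosome's tested regions that were called (stacked bars from 0, lower and higher in restricted HSCs); the dashed line marks 2.72%, the share over all tested regions. Lower calls outnumber higher ones on every chromosome, and chromosome X, at 0.573%, has the shortest bar.

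The direction of the calls also varied with the size and strength of a region. With the tested regions cut by width into 4 sets of equal size, the narrowest set (199 to 480 bp) had calls in both directions: 252 were lower and 88 higher. In the widest set (981 to 3907 bp) the counts were 148 and 147. With 4 sets by mean accessibility, 291 were lower and 117 higher in the weakest set, and 152 were lower and 144 higher in the strongest. Regions of 1000 bp or wider took 53.1% ± 0.684 of counts in MUL-HSC (SD, n = 4) and 54.3% ± 1.22 in restricted libraries (SD, n = 9), a difference within the spread (exact permutation test, two-sided, adjusted p = 0.392). When each library's share in the 5000 strongest regions entered the fit, calls split into 930 higher and 866 lower, so that 51.8% were gains. How far this share bears on the direction of the calls was not tested further.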

How the data were processed

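Bulk Omni-ATAC-seq libraries of sorted HSCs were measured in 13 samples. The deposited values are raw whole-number counts, 1 per region and library. The mm9 build and, as tools, MACS2, Picard, SAMtools, Bowtie2, FastQC and Trim Galore are named per the submitters' processing notes. Not given in the sources used here were versions, pooling for peak calling, duplicate removal, any shift of read ends, and whether positions are counted from 0.

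Counts were analysed in R 4.3.3 with edgeR 4.0.16 (filterByExpr by the 3 labelled groups, TMM, robust quasi-likelihood fit, two-sided). The 59408 tested regions hold 91.4% of counts. The biological coefficient of variation was 15.6%. The pooled fit had 2 groups of 9 and 4 libraries, and single classes were fitted with 3 coefficients. CPM uses TMM-scaled totals, and log2 CPM a prior count of 2. Standard errors are the log2 fold change over the root of F. The method was tested on simulated counts. Within groups, the 24 pairs of libraries differed beyond counting noise (chi-square per degree of freedom 1.44 to 2.46), so none was counted as a duplicate.

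Regions named are the 12 of smallest p per direction, the 5 of smallest p per direction called by pooling alone, and the 5 bins of 1 Mb with most calls. The members and lists were chosen with earlier results of these data known. The neighbour counts, sets by width and level, and chromosome comparison were added after values were seen. Alternatives were DESeq2 1.42.0, cyclic loess offsets (limma 3.58.1), 1 surrogate variable (sva 3.50.0), other filters, covariates, thinning, a replicate block and leaving out libraries. Gene lists were not used here, for want of an mm9 annotation.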

Additional observations from a re-analysis of the deposited data

Results flagged for a closer look

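Of 88 groups of values checked, 6 held a library far from the rest of its group by Dixon's criterion, which chance alone passes in about 1 of 20 groups. PEM-HSC replicate 3 accounted for 3 of them. Its share of counts in the 5000 strongest regions was 38.0%, against 33.4% to 35.1% in the other 8 restricted libraries. Its share of counts in regions of 1000 bp or wider was 57.1%, against 52.7% to 54.7%. Its summed accessibility over the bin from 3 Mb of chromosome 7 was 653 CPM, against 528 to 588 CPM. Without this library 1882 regions were called, 803 of them higher.

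PEM-HSC replicate 2 had a summed accessibility of 943 CPM over the bin from 61 Mb of chromosome 9, below the 1041 to 1128 CPM of the other restricted libraries. At chr8:127206097-127206665 PEM-HSC replicate 4 had 1.98 CPM and the other restricted libraries 0 to 0.845 CPM. At chr4:107547158-107547548 MUL-HSC replicate 1 had 0.642 CPM, a single count, and the other 3 MUL-HSC libraries had none.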

How the results depend on the processing

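Counts follow in 1 order: all calls, higher, lower, called by neither class alone, called without overlap, and differing between PLT-HSC and PEM-HSC at an unadjusted p under 0.05. With 1 surrogate variable they were 36, 9, 27, 16, 28 and 3. That variable had 41.8% of its variance between the pooled groups. It followed the main axis of variation among the libraries, with an absolute r of 0.936. Without libraries under 2000000 counts, which leaves 2 MUL-HSC libraries, they were 119, 24, 95, 27, 119 and 19. Those 2 are replicates 3 and 4, and replicate 3 lay nearer to the restricted libraries at called regions. This fit thus changes depth and the make-up of the MUL-HSC group together. With a mean of at least 20 counts, which tests 29891 regions, they were 729, 239, 490, 258, 376 and 80, and thinning every library to the smallest one gave 923, 334, 589, 347, 369 and 91. With library total in the model, calls were 942, 286 higher, 656 lower and 343 by neither class, and 98 differed between classes. With equal weight of the classes 352 differed, of 2039 called. Leaving out each library gave 294 to 2388 calls, 83 to 968 higher, 211 to 1420 lower, 98 to 761 by neither class, 234 to 1871 without overlap and 33 to 299 differing. With the share of the 5000 strongest regions in the model 930 calls were higher. Totals alone, loess, DESeq2, a filter by the 2 pooled groups, no filter, no robust estimation and no chromosome X or Y gave 1452 to 2082 calls. Fewer regions or libraries entered some of these fits; otherwise the cause was not tested.

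The labels number replicates in every class, but same-numbered libraries did not deviate together (10 pairs, r from -0.136 to 0.0992). No library correlated best with its own number, and PEM-HSC replicates 5 and 6 had no same-numbered library to compare with. With the replicate number as a block, which this pairing check does not call for, the counts were 677, 197, 480, 318, 381 and 58.

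None of the 34 named regions changed direction in any setting. The surrogate variable left 12 of 34 called, the block 26 of 34, thinning 26 of 31 tested, and libraries of 2000000 counts or more 15 of 31 tested. A region near 1 CPM rests on a few counts per library, but how depth bears on the lost calls was not tested.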
